A study of Mus musculus with 2 samples.

Results

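Mir191 and Mir425 are 2 neighbouring microRNA genes on mouse chromosome 9. They were taken from the deposited tables by their GENCODE M21 symbols, as 2 of the 2202 microRNA genes counted there. Small RNA was sequenced from hearts of females of the hybrid strain B6CASTF1/J (C57BL/6J crossed with CAST/EiJ) at an age of 2 months. There is 1 group with 2 biological replicates, no treatment and no contrasting genotype, so the only comparison is between the 2 libraries. The replicates are numbered as different females, although their donor field is identical. The spread between them therefore measures 2 libraries, which may differ for technical reasons.

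MicroRNAs are cut from a folded hairpin into short single strands that guide Argonaute proteins to messenger RNAs, mainly through the seed, bases 2 to 8 of the mature strand. Mir191 and Mir425 are known to be made from a shared primary transcript. Both are found in many tissues and in blood, and both are often used as reference microRNAs in quantitative PCR. MiR-191 is known to act in the maturation of red blood cells, and miR-425 is known as a repressor of the mRNA of the atrial natriuretic peptide, a heart hormone.

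The sequences below are the annotated mature strands of the 2 genes, with miR-489-3p, which has the same seed as miR-425-5p. They come from RefSeq (GRCm38.p6), where both genes were found, and are written 5′ to 3′ with the seed in capitals. Both genes have an annotated strand from each arm of the hairpin:
miR-191-5p: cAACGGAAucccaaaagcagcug
miR-191-3p: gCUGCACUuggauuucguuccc
miR-425-5p: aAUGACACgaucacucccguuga
miR-425-3p: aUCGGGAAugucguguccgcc
miR-489-3p: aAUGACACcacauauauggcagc

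The 4 seeds of the members all differed. Of the 1398 seeds among 1738 mature entries in the table, 1211 (86.6%) belonged to a single mature microRNA. This held for 3 of the members' 4 seeds. The seed of miR-425-5p was shared with 1 other mature microRNA, miR-489-3p from Mir489 on chromosome 6, a gene known from an intron of the calcitonin receptor gene Calcr and from resting muscle stem cells. MiR-425-5p and miR-489-3p had the same base at 12 of 23 positions. Mir489 had 0 counts on either strand in both libraries. A count of 0 was taken to allow up to 3 counts, a set limit and not an exact interval. That limit is 1.24 CPM (counts per 1000000 own-strand microRNA counts of a library) in replicate 1 and 1.08 CPM in replicate 2. Of the 2 genes with this seed, Mir425 was therefore the one with counts.

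In the hairpins, with both annotated mature strands in capitals, the 2 genes had similar size and composition:
Mir191: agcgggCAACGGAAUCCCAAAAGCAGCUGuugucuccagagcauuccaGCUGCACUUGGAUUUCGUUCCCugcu
Mir425: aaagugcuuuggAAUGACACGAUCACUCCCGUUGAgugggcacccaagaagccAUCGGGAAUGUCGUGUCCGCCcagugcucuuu

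The Mir191 hairpin is 74 bases long with 54.1% G and C, and that of Mir425 is 85 bases long, also with 54.1%. Over detected genes, those with at least 10 counts in both libraries, the medians were 84 bases and 51.0%. RNAfold gave a minimum free energy of -35.0 kcal/mol for Mir191, or -0.47 per base. For Mir425 it gave -31.7 kcal/mol, or -0.37 per base, against a median of -0.43 over the 306 detected genes. Neither hairpin shared a stretch of 20 bases with a microRNA hairpin at another locus. The tables count reads per gene, so which arm a read came from is not resolved.

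In mm10, Mir191 (ENSMUSG00000105497.1) lies on the plus strand of chromosome 9 at 108568319 to 108568392. Mir425 (ENSMUSG00000065579.1) follows on the same strand at 108568777 to 108568861, 384 bases further on. The genes are usually described as lying in Dalrd3, a protein-coding gene. GENCODE M21 instead starts Dalrd3 at 108569886, 1024 bases past the end of Mir425, and places both hairpins in the long noncoding gene 4833445I07Rik (108567533 to 108569174), which it tags as a host of noncoding RNA. RefSeq's Dalrd3 runs from 108567484 to 108572773 and holds both.

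The host has 2 annotated transcripts. Both hairpins lie in the single exon of the unspliced transcript. Mir191 also lies in the intron of the spliced one (108568181 to 108568483). The spliced transcript itself ends 2 bases before Mir425, so Mir425 lies outside it. Gm24083, a predicted microRNA gene of 120 bases on the minus strand (108568295 to 108568414), covers all of Mir191 and extends past it by 24 bases on one side and 22 on the other. No microRNA gene is annotated opposite Mir425.

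**Figure D1:**
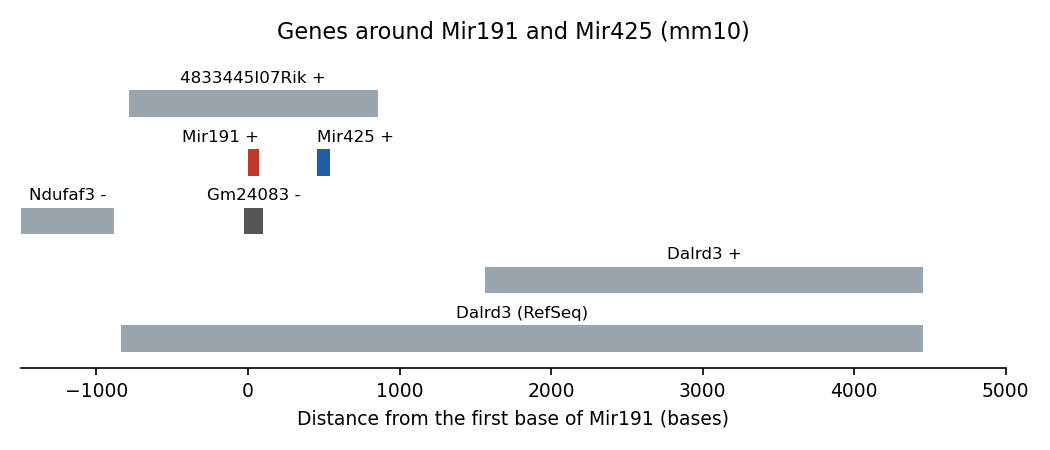
Genes around the 2 hairpins, drawn to scale as distance in bases from the first base of Mir191, with the strand after each name (none is given for RefSeq's Dalrd3) and Ndufaf3 cut at the left edge. Mir191 and Mir425 are 384 bases apart inside 4833445I07Rik, Gm24083 covers Mir191, and GENCODE's Dalrd3 starts 1024 bases past Mir425 while RefSeq's spans both.

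The libraries held 2424441 and 2770301 own-strand microRNA counts, out of 8069273 and 7995058 reads. Reads that mapped to several places, 49.5% and 42.7% of the libraries, were assigned to no gene. Of the heart muscle markers, Mir208a (1542 and 5865 CPM in replicates 1 and 2), Mir499 (4354 and 2641), Mir208b (84.1 and 39.3) and Mir1a-2 (58.2 and 24.2) were detected. Mir1a-1, Mir133a-1 and Mir133a-2 had at most 11 counts. Those 3 genes and Mir1a-2 share 20 bases with another hairpin, so uncounted multimapping reads leave their levels uncertain. The 7 markers together summed to 6048 and 8577 CPM. All intervals below are 95% exact Clopper-Pearson intervals. They cover counting error only, and not other variation between libraries. Copies of a molecule made by amplification are not covered either, since the reads carry no molecular identifiers.

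Mir191 was among the abundant microRNA genes of the heart, and its CPM differed little between the libraries. It had 27126 counts in replicate 1 and 30851 in replicate 2. That was 1.12% of counts in replicate 1 (interval 1.11 to 1.13) and 1.11% in replicate 2 (1.10 to 1.13), so the intervals overlapped. The level was 11162 ± 36.9 CPM (SD, n = 2), from 11189 and 11136 CPM. The SD was 0.331% of the mean, where the median detected gene had 22.5%. The 12 other genes within 2-fold of its level had a median of 23.8%. An SD of 36.9 CPM is smaller than the counting error of Mir191, whose interval in replicate 1 was 11057 to 11322 CPM. It therefore does not measure the spread between libraries, and it depends on scaling to library totals. Mir191 ranked 16th of all genes by mean CPM, 17th in replicate 1 and 16th in replicate 2, and stood 139-fold above the median detected gene.

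Mir425 was more than 10 times less abundant but well above the detection limit. It had 1876 counts in replicate 1 and 2313 in replicate 2, which correspond to 774 CPM (interval 739 to 810) and 835 CPM (801 to 870). These intervals overlapped only at their ends. The level was 804 ± 43.2 CPM (SD, n = 2), and the SD was 5.37% of the mean. Mir425 ranked 75th by mean CPM, 76th in replicate 1 and 75th in replicate 2 among all genes, above the median detected gene at 80.1 CPM.

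In the order of levels, Mir191 stood between Mir149 above (14684 and 25181 CPM) and Mir93 below (10520 and 9553 CPM), and it kept its place against both in each library. Mir93 comes from an intron of the replication gene Mcm7. The means of Mir191 and Mir93 (11162 and 10037 CPM) differed by more than the SD of either gene (36.9 and 683 CPM). Mir26b, ranked 14th, was above Mir191 in both libraries, but its SD of 9132 CPM exceeded the difference of the means. Mir15b, ranked 19th, was above Mir191 in replicate 1 (11323 CPM) and below it in replicate 2 (7794 CPM). Its order relative to Mir191 was therefore not resolved.

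The genes next to Mir425 could not be ordered against it. Mir29c, Mir324 and Mir30c-2 stood just above it by mean CPM, and Mir335, Mir31 and Mir351 just below. Their means lay between 771 and 859 CPM. Each of the 6 was above Mir425 in one library and below it in the other, and no difference of means exceeded the larger SD. Mir29c and Mir30c-2 also share 20 bases with another hairpin.

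By distance on log2(CPM + 1) over the 2 libraries, the genes nearest to Mir191 were Mir93 (0.24), Mir30d (0.30), Mir15b (0.51), Mir30a (0.53) and Mir29a (0.79). Those nearest to Mir425 were Mir30c-2 (0.06), Mir484 (0.24), Mir342 (0.26), Mir324 (0.26) and Mir181d (0.30). None of these 10 genes lies on chromosome 9. Likeness of level over 2 libraries describes these libraries alone.

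**Figure D2:**
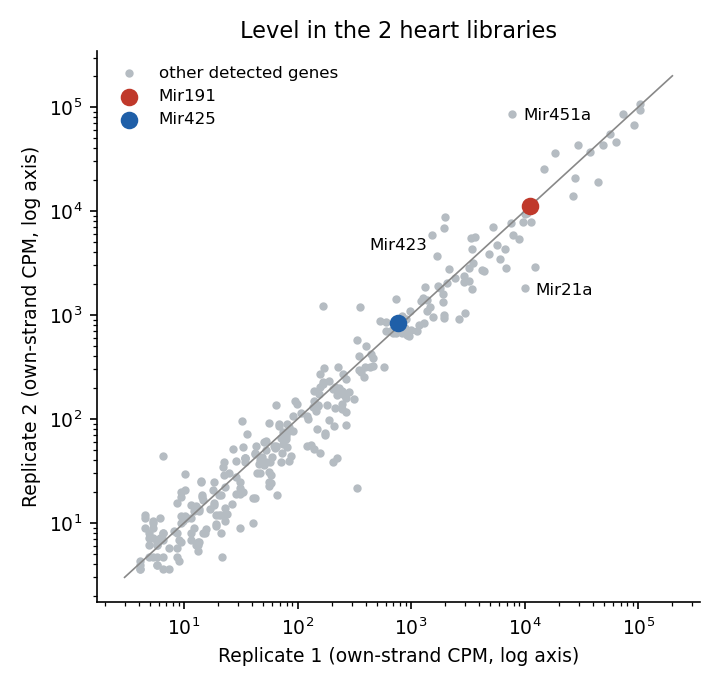
Own-strand CPM of the 306 detected genes in replicate 1 (x) and replicate 2 (y), both on log axes, with the line of equal levels. Mir191 (11189 and 11136 CPM) lies on the line and Mir425 (774 and 835 CPM) just above it, while Mir451a and Mir423 are higher in replicate 2 and Mir21a is higher in replicate 1.

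Although the hairpins have the same host, Mir191 counts exceeded Mir425 counts more than 10 times over in both libraries. The ratio was 14.5 in replicate 1 (interval 13.8 to 15.2) and 13.3 in replicate 2 (12.8 to 13.9). The intervals overlapped at their ends, and the ratio differed 1.08-fold between the libraries. Overlap of intervals is no test, and this difference was not tested. The geometric mean ratio was 13.9, or 16.0 when each count is divided by the length of its hairpin. Together the 2 genes held 1.20% of counts in each library, with an SD of 0.000631 percentage points (n = 2). Of these counts 93.5% in replicate 1 and 93.0% in replicate 2 came from Mir191. That SD is far below counting error, since the share of Mir191 alone had an interval of 1.11 to 1.13% in replicate 1. It therefore does not measure the spread between libraries. The near-equal shares also depend on scaling to library totals.

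The unequal counts of Mir191 and Mir425 were set beside those of other neighbours. Over the whole table there were 88 pairs of adjacent detected genes on the same strand, at most 10 kb apart. A gene can belong to more than 1 pair, so pairs are not independent. The higher gene exceeded the lower by a median of 4.79-fold, with a range from 1.00-fold to 287-fold. By mean CPM, Mir191 exceeded Mir425 13.9-fold, and 59 of the 87 other pairs (67.8%) had a smaller ratio. The neighbouring pairs in that order were Mir351 over Mir503 (11.7-fold) and Mir532 over Mir188 (14.0-fold). Multimapping reads were left uncounted, so ratios of pairs in which a gene shares a stretch with another hairpin are uncertain. Without those pairs, a choice made after seeing the data, the median was 3.52-fold and the range 1.00-fold to 67.9-fold. Of the 53 other pairs left, 40 (75.5%) had a smaller ratio. With or without them, the imbalance at this locus was thus above the median and inside the range of other clusters.

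The pair changed less between the libraries than most. The log2 change of its ratio from replicate 1 to replicate 2 was -0.12, against a median absolute change of 0.63 over the 88 pairs. Of the 87 other pairs 8 (9.20%) changed less in size. The Mir351 to Mir503 ratio, by contrast, went from 4.05 to 27.0, and that of the erythroid genes Mir451a and Mir144 from 3.98 to 12.7. This measure does not depend on how the libraries are scaled. When pairs with a shared stretch of 20 bases were left out, a choice made after seeing the data, 6 of 53 other pairs (11.3%) changed less. Within 1 kb, 2 of 51 others (3.92%) did, and with at least 50 counts in both libraries 7 of 55 (12.7%) did. Ratios of pairs with few counts also move by counting error, which the share over all pairs does not remove.

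**Figure D3:**
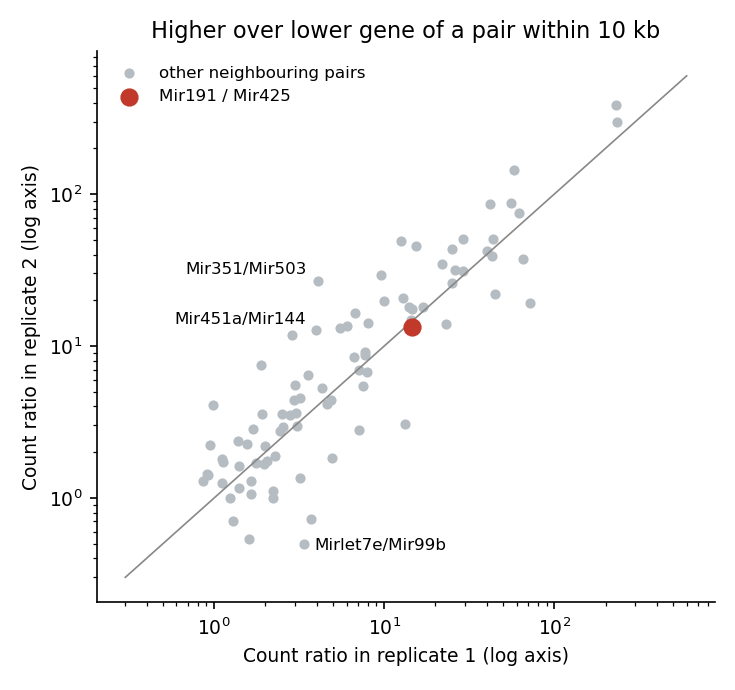
Count ratio of the higher over the lower gene in 88 pairs of adjacent detected microRNA genes on the same strand within 10 kb, in replicate 1 (x) and replicate 2 (y), both on log axes, with the line of equal ratios. The Mir191 to Mir425 pair (14.5 and 13.3) lies close to the line, while Mirlet7e/Mir99b, Mir351/Mir503 and Mir451a/Mir144 lie far from it.

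All counted reads of the locus came from the plus strand. Gm24083 had 0 counts on its own strand in both libraries, and the 27126 and 30851 counts on its opposite strand equal those of Mir191. Opposite-strand counts at Mir191 were 0. The set limit of 3 counts for a 0 equals 0.0111% of its own-strand counts in replicate 1 and 0.00972% in replicate 2. Opposite-strand counts at Mir425 were also 0, and the same limit equals 0.160% and 0.130%. The absence of opposite-strand counts was common, since 282 of the 306 detected genes (92.2%) had none in either library.

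The annotation of Gm24083 decides whether Mir191 is seen at all when strand is ignored. In the either-strand column Mir191 had 0 counts in both libraries, while Mir425 had the same 1876 and 2313 counts as on its own strand. Of the 24 detected genes with an annotated microRNA gene opposite, 23 were at 0 in that column in both libraries, and no other detected gene was. Of these 23 genes, Mir378a and Mir451a had a higher mean CPM than Mir191. Its own-strand reads equal 5.23% of the 518508 reads listed as ambiguous in that column in replicate 1, and 3.83% of the 806523 in replicate 2.

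Between the libraries, scaled to their own-strand totals, Mir191 did not pass the test and Mir425 did, by a small margin. Each gene's counts were tested given the library totals (exact binomial, two-sided), and p-values were adjusted by Benjamini-Hochberg over the 306 detected genes. The test sets 2 libraries against counting error and compares no conditions. The fold of replicate 2 over replicate 1 was 0.995 for Mir191 (interval 0.979 to 1.01, log2 -0.01, adjusted p = 0.658). For Mir425 it was 1.08 (1.01 to 1.15, log2 0.11, adjusted p = 0.0251 by the binomial test). With every gene that had at least 1 count tested, the adjusted p of Mir425 was 0.0529 by the same test, and the call was lost.

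Mir425 was thus 1 of 2 members called. Over all 306 genes 61.1% were called, 19.6% as higher and 41.5% as lower in replicate 2. Neither member reached 1.5-fold, which 36.6% of genes both passed the test with and reached. Of the 305 other genes 3 had a smaller absolute log2 ratio than Mir191 with library totals, but 66 did with TMM and 69 with DESeq2 factors. For Mir425 these counts were 39, 102 and 106. The median absolute log2 ratio was 0.46 with library totals.

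Most genes of similar level differed more between the libraries than the members did. Of the 12 other genes within 2-fold of the mean CPM of Mir191, 11 passed the test with library totals and 5 of them differed by at least 1.5-fold. Their log2 ratios ran from -2.47 for Mir21a, known from fibroblasts, to 0.78 for Mir149. Of these 12 genes 1 had a smaller absolute ratio than Mir191 with library totals, and 3 did with TMM or DESeq2 factors. Around Mir425 there were 35 such genes, 30 of which passed, with log2 ratios from -1.03 for Mir27a to 2.87 for Mir185. Of these 35 genes 5 had a smaller absolute ratio than Mir425 with library totals, 11 with TMM and 12 with DESeq2 factors.

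The near-equal level of Mir191 depended on the scale. With library totals the median log2 ratio over all detected genes was -0.19, so a gene with equal CPM stood above the median gene in replicate 2. TMM factors, which moved that median to -0.02, gave Mir191 a 1.12-fold higher level in replicate 2 (log2 0.17, adjusted p = 1.8e-43 by the binomial test). DESeq2 size factors gave 1.14-fold (log2 0.19, adjusted p = 3.4e-53 by the same binomial test). Mir425 was then 1.22-fold and 1.23-fold higher, and both members were called. With these scales 30.1% (TMM) and 30.7% (DESeq2) of all genes were called higher in replicate 2. Relative to the median gene, both members therefore stood higher in replicate 2, by 1.12-fold to 1.23-fold.

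Markers of blood cells also differed between the libraries. The erythroid markers Mir451a, Mir144 and Mir486 summed to 11488 CPM in replicate 1 and 95604 CPM in replicate 2, and all 3 were called higher there with library totals, TMM and DESeq2 factors, where 19.6%, 30.1% and 30.7% of all genes were. Mir451a, made during red cell formation, had 7816 and 86827 CPM, Mir144 from the same cluster 1963 and 6858, and Mir486 1710 and 1919. With the 3 genes taken out of the library totals, a scale chosen after seeing the data, Mir191 was 1.09-fold higher in replicate 2 (log2 0.12) and Mir425 1.18-fold (log2 0.24). Whether reads of Mir191 or Mir425 came from blood cells was not tested. In bulk tissue, more cells of a type and more RNA per cell cannot be told apart.

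The 6 matched leukocyte genes summed to 7064 and 5193 CPM. Of the 5 detected, Mir142, Mir223, Mir150 and Mir146 were called lower in replicate 2 under library totals, TMM and DESeq2 alike, as were 41.5%, 28.8% and 28.4% of all genes. Mir146 shares 20 bases with another hairpin. Mir155 had 2088 and 2027 CPM, did not pass under library totals and was called higher with TMM and DESeq2 factors. Mir142b was at 0. Of the other cell type lists, the endothelial genes summed to 73654 and 85270 CPM, the smooth muscle genes to 50667 and 44521, and the fibroblast genes to 11155 and 2524, a fall led by Mir21a (10018 and 1810 CPM). Their part in the members' ratios was not tested.

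Mir191 and Mir425 were then read beside other microRNAs used as quantitative PCR references, a list of 17 genes that includes both and was chosen with earlier results of these data known. Of these 16 were detected, and Mir103-1 was not (6 and 3 counts). With library totals 7 of the 16 were called higher in replicate 2 and 6 lower, against 19.6% and 41.5% of all genes. With TMM or DESeq2 factors 10 were higher and 5 lower, against 30.1% higher and 28.8% lower of all genes with TMM, and 30.7% and 28.4% with DESeq2. The median log2 ratio of the list was -0.00287 with library totals, against -0.19 over all detected genes. It was 0.17 with TMM and 0.19 with DESeq2 factors, against -0.02 and 0.00. With library totals the middle genes of the list were Mir191 (log2 -0.00675) and Mir361 (0.00101). The list median is therefore not independent of Mir191 and gives no separate reference for it.

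Within the list, Mir191 had the second smallest absolute ratio with library totals, after Mir361 (1386 and 1387 CPM). Next came Mirlet7i of the let-7 family (104112 and 107276 CPM, log2 0.04), then Mir425 and Mir93 (log2 -0.14). With TMM and DESeq2 factors the order began with Mir93, Mir30e and Mir25, and Mir191 and Mir425 stood 4th and 7th. Mir93 and Mir25 belong to 1 cluster in Mcm7, so they are not independent of each other.

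Several reference genes differed more than the members did with library totals. Mir423 had 1701 CPM in replicate 1 and 3681 in replicate 2, a 2.16-fold difference, and was called higher with library totals, TMM and DESeq2 factors. Mir186 had 262 and 166 CPM, and Mir320 had 3423 and 4318 CPM. Mir16-1 (1324 and 1849 CPM) and Mir16-2 (283 and 183 CPM) differed in opposite directions, as did Mir24-1 (94.5 and 148 CPM) and Mir24-2 (245 and 140 CPM). Those 4 genes and Mir103-2 share 20 bases with a hairpin elsewhere. Their levels are uncertain, since multimapping reads were left uncounted. Mir191 and Mir425 share no such stretch.

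**Figure D4:**
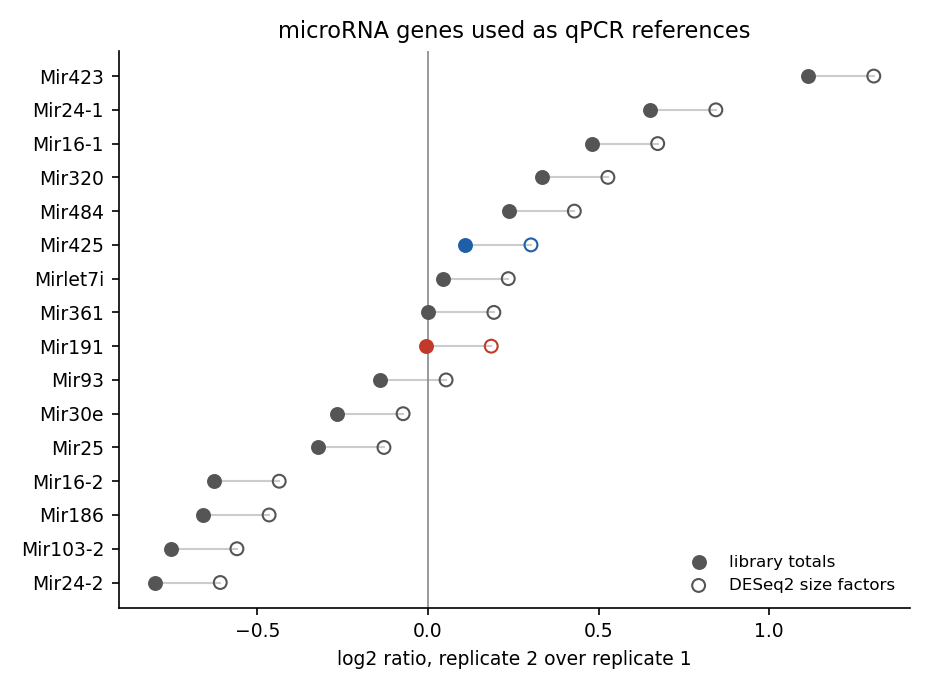
Log2 ratio of replicate 2 over replicate 1 for the 16 detected reference microRNA genes, with library totals (filled) and DESeq2 size factors (open), ordered by the former. Mir191 moves from -0.01 to 0.19 and Mir425 from 0.11 to 0.30, both between Mir423 at the top and Mir24-2 at the bottom.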

How the data were processed

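The deposited tables hold raw counts of reads per microRNA gene for 2 libraries. Per the labels the assembly is mm10. GENCODE M21 is named in a text that accompanies the deposited tables. Trimming, aligner and counter were not given in the sources used here. None of the 3 count columns has a header. From their values they are either-strand, own-strand and opposite-strand counts. The first 4 lines name no gene, hold 70.0% and 65.3% of reads and were left out. All 2202 identifiers matched M21.

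CPM are own-strand counts relative to the library's own-strand total. A minimum of 10 counts in each library defined detected genes. The exact binomial test was run over all detected genes with Benjamini-Hochberg adjustment at 0.05. No contrast between groups could be fitted, because the labels give 1 group. The test was checked on simulated counts with known changes. It called 78 of 100 genes set to differ 1.5-fold, 97 of 100 set to 3-fold and 6 of 106 left equal. Between the real libraries the chi-square per degree of freedom was 510, so they differed by far more than counting error. The check therefore does not show how often the test calls equal genes at that spread. The TMM factors (edgeR 4.0.16) and DESeq2 1.42.0 size factors served as scales. Means and SDs are over 2 libraries.

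The members, lists and tests were chosen with earlier results of these data known. Named genes were the members, Gm24083, the 3 genes ranked on either side, the 5 nearest by level, genes sharing a seed, detected reference genes, neighbouring pairs in the ratio order and cell type markers. Mirlet7e/Mir99b, Mir451a/Mir144, Mir27a and Mir185 were added after their values were seen, as were Mir149 and Mir21a as ends of a range. Alternatives were other scales, the either-strand column, count filters, pair distances and each replicate alone. Python 3.11.15, numpy 2.4.6, scipy 1.17.1, matplotlib 3.10.9, R 4.3.3 and RNAfold 2.7.2 were used.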

Additional observations from a re-analysis of the deposited data

How the results depend on the processing

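For Mir191 the log2 ratio of replicate 2 over replicate 1 was -0.01 with library totals and did not pass the binomial test. It was positive and passed with TMM factors (0.17), DESeq2 size factors (0.19), all reads as the scale (0.20) and totals without the 20 most abundant other genes (0.12). The same held for totals without the 3 erythroid genes (0.12) or without Mir451a (0.11), chosen after seeing the data. These settings differ from the first only in the scale. Mir425 stayed positive and called under those scales, from 0.23 to 0.32, and with the either-strand column. With all genes of at least 1 count tested its ratio stayed at 0.11 but lost the call (682 genes adjusted over instead of 306). The either-strand column gave Mir191 a level and a ratio to Mir425 of 0, and put Mir425 at 1081 CPM, because reads over opposite genes leave that column's total. The Mir191 to Mir425 ratio was 13.3 without replicate 1 and 14.5 without replicate 2. The share of other pairs that changed less was 3.92% within 1 kb, and the cause was not tested. Under the other settings it ran from 8.51% (within 50 kb) to 12.7% (at least 50 counts in both libraries). Of 51 recomputed values 40 kept their direction and call, or stayed within a set margin. That count does not measure robustness, since some values could not come out otherwise. With 2 replicates, either one alone always lies within the SD of their mean CPM. For gene counts and ranks the margin was 1.5-fold, so 183 of 682 genes called counted as unchanged from 187 of 306. A replicate ratio without a replicate, and Mir191's ratio in the either-strand column, could not be computed. The 5 nearest genes of each member were also its nearest with DESeq2 factors, which shift all genes alike. Depth limits Mir425 more than Mir191, since its counts are 1876 and 2313.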

Other observations

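With library totals, the 4 of 306 detected genes with the smallest absolute log2 ratios between the libraries were picked after their values were seen. They were Mir361 on the X chromosome (1386 and 1387 CPM), Mir29a on chromosome 6 (7591 and 7600 CPM), Mir337 on chromosome 12 (84.1 and 84.5 CPM) and Mir191 on chromosome 9 (11189 and 11136 CPM). They differ more than 100-fold in level. Mir29a is known as a repressor of collagen mRNAs, and Mir337 belongs to the imprinted Dlk1-Dio3 cluster. With DESeq2 size factors their log2 ratios became 0.19, 0.19, 0.20 and 0.19, because these factors shift every gene by the same amount.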
